A study of Mus musculus with 10 samples.

Results

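The chemokines Cxcl1, Cxcl2, Cxcl3 and Cxcl5, the receptors Cxcr1 and Cxcr2, and the chemerin receptors Ccrl2 and Cmklr1 form the neutrophil-attracting chemokine system described here. These 8 genes were taken by symbol from the 28185 genes of the deposited table, and all 8 passed the filter on low values. The study compared Ly6G+ cells from the infarcted heart and from blood of male C57Bl/6J mice, aged 12 to 16 weeks, with and without mesenchymal stromal cells (MSC). All mice of the 4 groups had undergone ligation of the left coronary artery (LCA), and cells were collected at day 3. The groups were cardiac cells without MSC (MI, n = 3), cardiac cells with MSC (MI+MSC, n = 3), blood cells without MSC (Blood, n = 2) and blood cells with MSC (Blood+MSC, n = 2). MSC were syngeneic bone marrow cells injected under the skin at 3 sites soon after ligation. Hearts were digested with enzymes, a step the methods do not describe for blood, and cells were then selected with anti-Ly6G magnetic beads. Tissue and digestion can therefore not be told apart in the comparisons of heart and blood. A control injection for the groups without MSC is not given in the sources used here. Whether a cardiac and a blood library shared a mouse is not given either, so p-values measure the spread between these libraries.

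Cxcl1, Cxcl2, Cxcl3 and Cxcl5 are small secreted CXC chemokines that attract neutrophils by activating CXCR2, a G protein-coupled receptor that neutrophils lose from their surface after stimulation. CXCR1 is its close relative, and chemerin attracts leukocytes through CMKLR1. CCRL2 is an atypical receptor that holds chemerin on the cell surface without classical signalling and can associate with CXCR2.

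The shallowest library, MI 13, held 148594 recovered reads and the deepest, Blood+MSC 24, held 8602711, and 1 read was worth 8.40 normalized counts in MI 13 and 7.07 in Blood 21. A normalized count is the number of reads on a gene divided by the size factor of its library. The 14 neutrophil markers summed to 2362 to 7286 normalized counts for MI, 2543 to 11603 for MI+MSC, 40040 to 49710 for Blood and 14319 to 20492 for Blood+MSC. Ly6g itself, the gene of the selected surface protein, was at 16.8 to 26.9 for MI, 4.75 to 13.8 for MI+MSC, 198 to 645 for Blood and 41.2 to 57.0 for Blood+MSC. The 11 macrophage and monocyte markers summed to 3076 to 8432 for MI, 5871 to 12042 for MI+MSC, 7044 to 8175 for Blood and 5832 to 7384 for Blood+MSC. The 8 cardiomyocyte markers summed to 8095 to 24250 in MI and 3138 to 12602 in MI+MSC, the 8 endothelial markers to 2015 to 2221 and 463 to 878, and the 6 mural markers to 940 to 1093 and 263 to 628. Blood 21 held 10951 normalized counts of 7 platelet markers, against 351 in Blood 22. MI 13 stood apart, with a correlation of log2 values of 0.605 to 0.733 with the other cardiac libraries. In these bulk libraries, fewer cells of a type and less RNA per cell cannot be told apart.

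The 4 chemokine genes lie on the plus strand of chromosome 5 (GRCm39) in a cluster of 146.6 kb. Cxcl5 occupies chr5:90907186-90909483, Cxcl3 chr5:90933962-90937459, Cxcl1 chr5:91039094-91040974 and Cxcl2 chr5:91051730-91053797, and the platelet chemokine genes Ppbp and Pf4 and the lung chemokine gene Cxcl15 lie between them. Cxcr2 (chr1:74193150-74200405, plus strand) and Cxcr1 (chr1:74230944-74233790, minus strand) are neighbours separated by 30.5 kb. Ccrl2 (chr9:110883554-110886591, minus strand) lies next to the neutrophil granule gene Ltf, and Cmklr1 occupies chr5:113750358-113788509 on the minus strand.

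The sequences before the annotated starts are shown because 5 of the 8 genes hold the same kind of motif there, including the 4 that passed the test as higher in the heart in either tissue comparison and Cxcl5, which passed in none. In the 250 bases upstream of the outermost annotated start, Cxcl1, Cxcl2, Cxcl3, Cxcl5 and Ccrl2 held a match to the NF-kB consensus, searched on both strands. Of the 17888 coding genes searched in the same way, 4.04% held such a match. Each line gives the 150 bases just before the start, 5′ to 3′ on the strand of the gene (GRCm39), with the match in capitals.
Cxcl1, chr5:91038944-91039093, plus strand: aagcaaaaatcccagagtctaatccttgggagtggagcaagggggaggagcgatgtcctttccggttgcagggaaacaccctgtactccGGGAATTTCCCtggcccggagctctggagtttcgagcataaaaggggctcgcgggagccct
Cxcl2, chr5:91051580-91051729, plus strand: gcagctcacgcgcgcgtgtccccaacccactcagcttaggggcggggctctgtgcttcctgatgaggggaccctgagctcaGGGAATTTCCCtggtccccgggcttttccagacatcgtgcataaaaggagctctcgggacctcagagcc
Cxcl3, chr5:90933812-90933961, plus strand: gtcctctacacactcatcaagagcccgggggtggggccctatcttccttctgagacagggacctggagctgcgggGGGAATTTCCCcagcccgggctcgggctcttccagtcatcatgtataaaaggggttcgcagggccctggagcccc
Cxcl5, chr5:90907036-90907185, plus strand: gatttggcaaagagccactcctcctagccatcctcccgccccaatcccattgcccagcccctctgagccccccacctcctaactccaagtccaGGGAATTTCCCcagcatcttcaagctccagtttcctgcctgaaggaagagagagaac
Ccrl2, chr9:110886592-110886741, minus strand: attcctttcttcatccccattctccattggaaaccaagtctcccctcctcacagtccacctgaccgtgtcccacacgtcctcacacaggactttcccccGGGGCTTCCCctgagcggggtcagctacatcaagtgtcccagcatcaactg
The 4 chemokine genes carried the same 11-base stretch, made of overlapping matches on the 2 strands, at 61 to 51 bases before the start in Cxcl1, 69 to 59 in Cxcl2, 75 to 65 in Cxcl3 and 57 to 47 in Cxcl5. The match of Ccrl2 was a different sequence, at 51 to 42 bases before its start. No match to this consensus was found in the windows of Cxcr1, Cxcr2 and Cmklr1. Whether these motifs bear on the levels of the genes was not tested. The window of Cxcl5 overlaps an exon of a noncoding gene annotated on the opposite strand. Of the other motifs searched on both strands, TATAAA occurred in Cxcl3 (6.60% of all windows), the C/EBP core TTGCNNAA in Cxcl5 (9.64%), and the AP-1 motif TGANTCA in none of the 8 genes (6.04%).

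**Figure D1:**
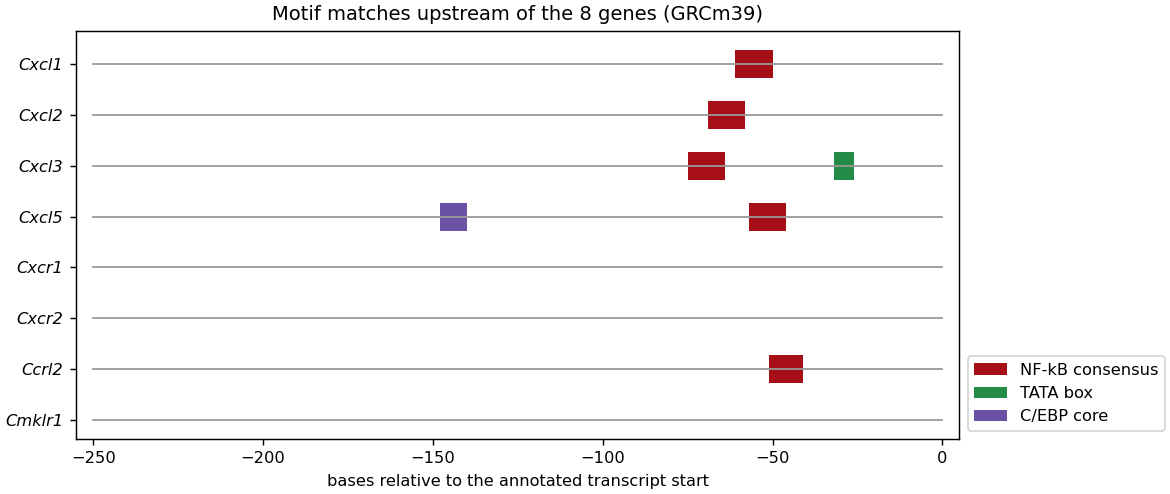
Positions of motif matches in the 250 bases before the outermost annotated start of each gene (x axis, bases relative to the start, GRCm39), with boxes for the NF-kB consensus, TATAAA and the C/EBP core. The NF-kB boxes of the 4 chemokine genes and Ccrl2 lie between 75 and 42 bases before the start, and Cxcr1, Cxcr2 and Cmklr1 have none.

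The 3′ ends of the chemokine transcripts are also rich in the pentamer ATTTA, the core of the AU-rich elements that mark short-lived mRNAs. The annotated 3′ UTR of Cxcl2 held 11 copies in 734 bases and that of Cxcl1 held 7 in 592 bases, which is 15 and 11.8 copies per kb against a median of 1.43 over 17602 genes. Cxcl3 held 5 copies in 645 bases and Cxcl5 5 in 1111. Ccrl2 held 2 in 860 bases, Cxcr2 2 in 1818 and Cmklr1 1 in 1526. Cxcr1 held 0, but its annotated 3′ UTR has only 21 bases, too few to compare. The 30 bases of Cxcl1 and Cxcl2 with the most copies are shown with the pentamers in capitals.
Cxcl1: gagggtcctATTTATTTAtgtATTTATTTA
Cxcl2: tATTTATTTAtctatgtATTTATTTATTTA
These stretches start at base 79 of the 3′ UTR of Cxcl1 and at base 123 of that of Cxcl2.

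Cxcl2, a chemokine that neutrophils and macrophages themselves release, was the most abundant of the 4 ligands in every library, with 89.2% to 97.0% of their summed normalized counts. It was at 698, 1437 and 2001 normalized counts for MI, 5394, 7494 and 2181 for MI+MSC, 678 and 264 for Blood and 1435 and 348 for Blood+MSC. All 3 MI+MSC libraries lay above all MI libraries, although MI+MSC 18 exceeded MI 20 by little, and the lowest MI library lay just above Blood 21. The log2 fold change was 1.82 ± 0.66 (SE) in MI+MSC vs MI (limma adjusted p = 0.580) and 0.74 ± 0.81 in Blood+MSC vs Blood (adjusted p = 0.870), where the libraries overlapped. In MI vs Blood it was 1.57 ± 0.74 (adjusted p = 0.117), and in MI+MSC vs Blood+MSC Cxcl2 was higher by 2.65 ± 0.74 (adjusted p = 0.0353).

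Cxcl1, known in mice as KC, was at 16.8, 35.6 and 54.6 normalized counts for MI, 243, 138 and 111 for MI+MSC, 0 and 1.30 for Blood and 11.8 and 7.23 for Blood+MSC. All MI+MSC libraries lay above all others, and the values as listed were next highest in MI, then in Blood+MSC and lowest in Blood. The value of MI 13 rests on 2 reads and those of Blood on 0 and 2 reads. In Blood 21 the floor of 3 reads is 21.2 normalized counts, above both Blood+MSC values and that of MI 13, so the order of these libraries was not detectable at this depth. The log2 fold change was 2.20 ± 0.48 in MI+MSC vs MI (adjusted p = 0.340) and 2.14 ± 0.58 in Blood+MSC vs Blood (adjusted p = 0.672), neither of which passed. Cxcl1 was above Blood in MI by 3.73 ± 0.53 (adjusted p = 0.000646) and above Blood+MSC in MI+MSC by 3.79 ± 0.53 (adjusted p = 0.00144). By pooled reads, the rate in MI was 39.3 times that in Blood, with a 95% counting interval of 10.7 to 327. That of Blood+MSC was 7.58 times that of Blood (2.04 to 63.6). These intervals cover counting error only, not the spread between mice.

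Cxcl3, another ligand of CXCR2, was also highest in MI+MSC. It was at 58.8, 34.6 and 60.7 normalized counts for MI, 144, 140.0 and 76.6 for MI+MSC, 0 and 3.25 for Blood and 22.6 and 10.3 for Blood+MSC. The listed values of no 2 groups overlapped, but the 2 Blood values rest on 0 and 5 reads, and the floor of Blood 21 (21.2) lies above 1 of the 2 Blood+MSC values. The log2 fold change was 1.18 ± 0.46 in MI+MSC vs MI (adjusted p = 0.604) and 2.42 ± 0.57 in Blood+MSC vs Blood (adjusted p = 0.672). Cxcl3 was above Blood in MI by 4.0 ± 0.52 (adjusted p = 0.000353) and above Blood+MSC in MI+MSC by 2.76 ± 0.52 (adjusted p = 0.00613). By pooled reads, the rate in MI was 17.4 times that in Blood (95% counting interval 7.32 to 54.5), and that of Blood+MSC was 5.07 times that of Blood (2.12 to 15.8). Transcripts of Cxcl2 and Cxcl3 share an identical stretch of 157 bases, so reads within it could not be assigned to either gene with certainty.

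Cxcl5, which epithelial cells also make, did not follow the other ligands. It was at 8.40, 8.65 and 38.6 normalized counts for MI, 28.4, 25.3 and 22.4 for MI+MSC, 56.5 and 5.85 for Blood and 9.72 and 18.8 for Blood+MSC. MI 20 lay above all MI+MSC libraries, and Blood 21 was highest of all on 8 reads. No comparison passed, with log2 fold changes of 0.72 in MI+MSC vs MI (95% interval -0.87 to 2.31), -0.46 in Blood+MSC vs Blood (-2.40 to 1.49), -0.38 in MI vs Blood (-2.15 to 1.40) and 0.80 in MI+MSC vs Blood+MSC (-0.97 to 2.58).

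**Figure D2:**
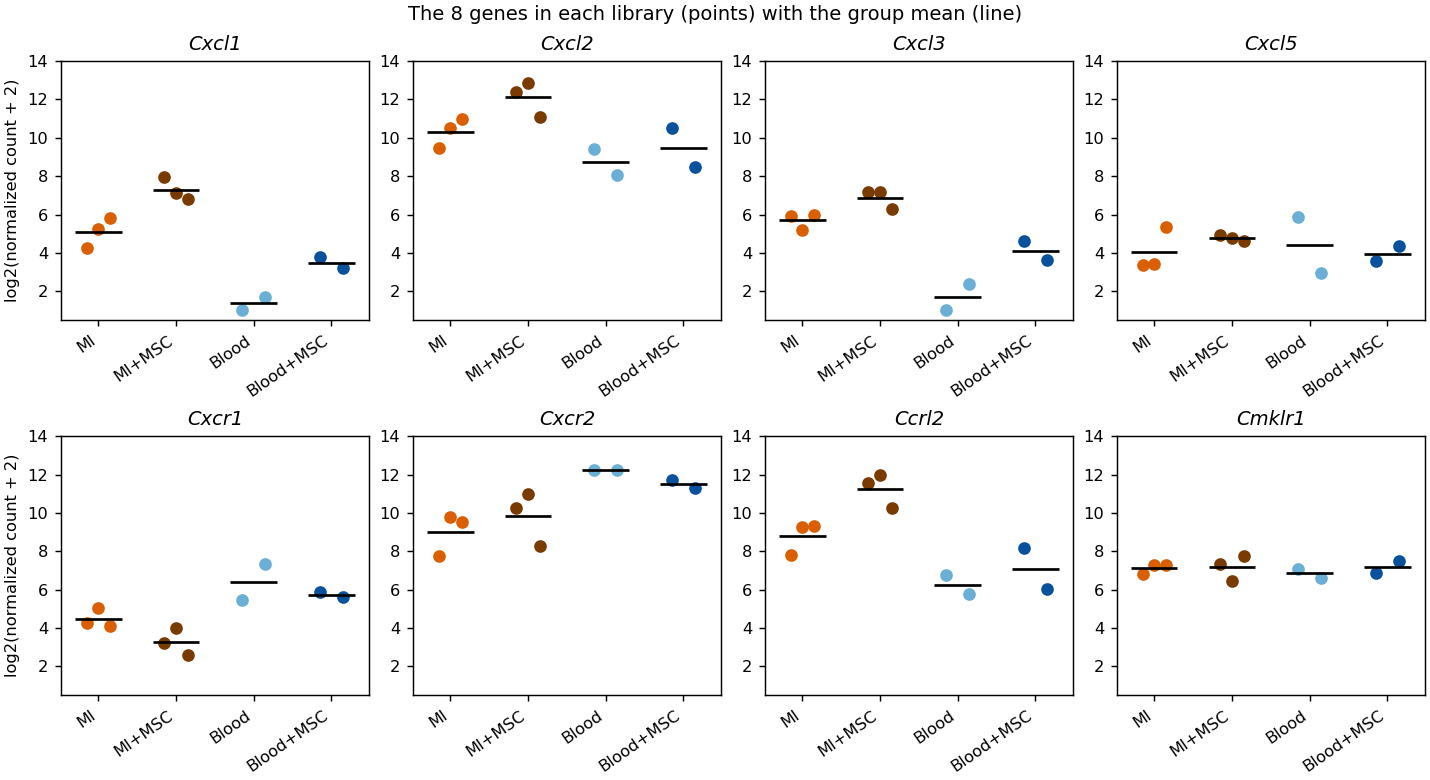
Level of each gene in each of the 10 libraries on the log2(normalized count + 2) scale (y axis), by group (x axis), with points for libraries and a line for the group mean of the log2 values. Cxcl1, Cxcl2, Cxcl3 and Ccrl2 are highest in the 3 MI+MSC libraries, Cxcr2 is highest in the Blood libraries, and Cmklr1 varies little.

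Ccrl2, the atypical chemerin receptor, showed the largest cardiac difference of the 8 genes. It was at 219, 606 and 647 normalized counts for MI, 3042, 3986 and 1220.3 for MI+MSC, 106 and 52.0 for Blood and 284 and 62.4 for Blood+MSC. The lowest MI+MSC library was above the highest MI library, and both cardiac groups lay above Blood. One Blood+MSC library, 23, exceeded MI 13. The log2 fold change in MI+MSC vs MI was 2.47 ± 0.63 (95% interval 1.09 to 3.86), which did not pass over all genes (limma adjusted p = 0.454). Ccrl2 was above Blood in MI by 2.54 ± 0.71 (adjusted p = 0.0184) and above Blood+MSC in MI+MSC by 4.18 ± 0.71 (adjusted p = 0.00361). In Blood+MSC vs Blood the log2 fold change was 0.83 ± 0.77 (adjusted p = 0.839), with overlapping libraries.

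Cmklr1, the signalling chemerin receptor, was the steadiest of the genes. It was at 109, 155 and 156 normalized counts for MI, 160.2, 84.9 and 210.2 for MI+MSC, 134 and 96.2 for Blood and 116 and 179 for Blood+MSC. All groups overlapped. The log2 fold changes were 0.04 in MI+MSC vs MI (95% interval -0.73 to 0.81), 0.34 in Blood+MSC vs Blood (-0.60 to 1.28), 0.28 in MI vs Blood (-0.58 to 1.14) and -0.02 in MI+MSC vs Blood+MSC (-0.88 to 0.84). Of the other genes of this axis, the chemerin gene Rarres2 reached at most 8.14 normalized counts in any library, and Ackr2, Ackr3 and Ackr4 at most 33.6. These 4 genes had a mean under 10 normalized counts, and 0 of the 6 genes on the list of the chemerin axis and atypical receptors were tested.

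Cxcr2, the main receptor for the 4 ligands, was at 210.1, 881 and 727 normalized counts for MI, 1221, 2002 and 304 for MI+MSC, 4847 and 4862 for Blood and 3353 and 2527 for Blood+MSC. All cardiac libraries lay below all blood libraries, and MI and MI+MSC overlapped. Cxcr2 was lower in MI than in Blood (log2 fold change -3.24 ± 0.77, adjusted p = 0.00913). In MI+MSC vs Blood+MSC the difference was -1.68 ± 0.77 (adjusted p = 0.161, 95% interval -3.37 to 0.01). With MSC it was 0.82 ± 0.69 in the heart (adjusted p = 0.719; 0.18 without MI 13, 0.25 without MI+MSC 17 and 1.60 without MI+MSC 18) and -0.74 ± 0.84 in blood (adjusted p = 0.879), although both Blood+MSC libraries were below both Blood libraries.

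Cxcr1 was much less abundant. It was at 16.8, 30.8 and 15.4 normalized counts for MI, 7.44, 13.8 and 4.07 for MI+MSC, 42.4 and 157 for Blood and 55.7 and 47.3 for Blood+MSC, with 2 to 32 reads behind the cardiac values. MI+MSC libraries lay below all MI libraries, the opposite order to Cxcl1, Cxcl2 and Cxcl3, though the MI 13 value rests on 2 reads and is under the 3-read floor of 25.2 normalized counts of that library, and all cardiac libraries lay below all blood libraries. The log2 fold change was -1.19 ± 0.52 in MI+MSC vs MI (adjusted p = 0.618) and -0.66 ± 0.64 in Blood+MSC vs Blood (adjusted p = 0.850). Cxcr1 was lower in MI than in Blood (-1.93 ± 0.58, adjusted p = 0.0255) and in MI+MSC than in Blood+MSC (-2.46 ± 0.58, adjusted p = 0.0180).

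Per kilobase of annotated exon, the order of mean levels changed between tissues. In Blood, Cxcr2 led with 1594 ± 3.63 normalized counts per kb (SD, n = 2), followed by Cxcl2 at 228 ± 142, Cxcr1 at 64.9 ± 52.8, Ccrl2 at 30.2 ± 14.6 and Cmklr1 at 27.7 ± 6.47. In Blood+MSC the order began with Cxcr2 at 965 ± 192, Cxcl2 at 431 ± 372 and Ccrl2 at 66.1 ± 59.8. In MI, Cxcl2 led with 667 ± 316 (SD, n = 3), and Cxcr2 at 199 ± 115 and Ccrl2 at 187 ± 90.3 did not differ beyond their spread. In MI+MSC, Cxcl2 stood at 2429 ± 1294, Ccrl2 at 1050.1 ± 537 and Cxcr2 at 386 ± 279, and Cxcl1 followed at 87.0 ± 37.1. The annotated exons of Cxcl1, Cxcl2 and Cxcl3, taken over all their transcripts, cover the whole span of each gene because some transcripts retain introns. Their levels per kb are therefore divided by a length that holds introns and are lower than per kb of spliced mRNA, and their places in this order depend on that length.

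The MSC comparison in the heart addressed whether MSC altered the chemokine system of cells in the infarct. Cxcl1, Cxcl2, Cxcl3 and Ccrl2 did not overlap between groups and were higher in MI+MSC, against 7.05% of the 11549 tested genes, and Cxcr1 did not overlap and was lower, against 9.6% (5 of 8 against 16.7% together). limma called 0 of the 8 genes and 0.0% of all genes, while 5 of the 8 had an unadjusted p under 0.05, against 8.01% of all. Without MI 13 and Blood 21, the 2 shallowest libraries, the log2 fold change was 1.97 for Ccrl2, 1.77 for Cxcl1, 1.39 for Cxcl2 and 1.30 for Cxcl3 (adjusted p 0.161 to 0.588). Among all tested genes ranked by log2 fold change, Ccrl2 stood at place 3 from the top, Cxcl1 at 11, Cxcl2 at 49 and Cxcl3 at 348. The median log2 fold change of the 8 genes was 1.0, against -0.01 over all tested genes. The 8 genes were chosen with earlier results of these data known. The paper itself lists Cxcl1, Cxcl2 and Ccrl2 as upregulated in this comparison. Its RT-qPCR of cardiac cells in an expanded cohort gave a significant increase of Ccrl2 and an upward trend of Cxcl2. The counts, places and median set against all genes are therefore a description and no test. edgeR called 0 of them, voom with quality weights called Cxcl1 (2.55% of all genes), DESeq2 over all libraries called Cxcl1 and Ccrl2 (0.658%), and DESeq2 on the cardiac libraries alone called Cxcl1, Cxcl2 and Ccrl2 (1.02%). Endothelial and mural marker sums were lower in all MI+MSC libraries than in MI, and the cardiomyocyte, neutrophil and macrophage sums overlapped, with the ranges given above. Gene by gene, 0 of 8 cardiomyocyte markers had a positive log2 fold change (median -1.43), and 7 were lower with an unadjusted limma p under 0.05. Of 12 tested neutrophil markers 4 were positive (median -0.29), and of 11 macrophage and monocyte markers 8 were (median 0.75). None of these markers passed. Their part in these differences was not tested.

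**Figure D3:**
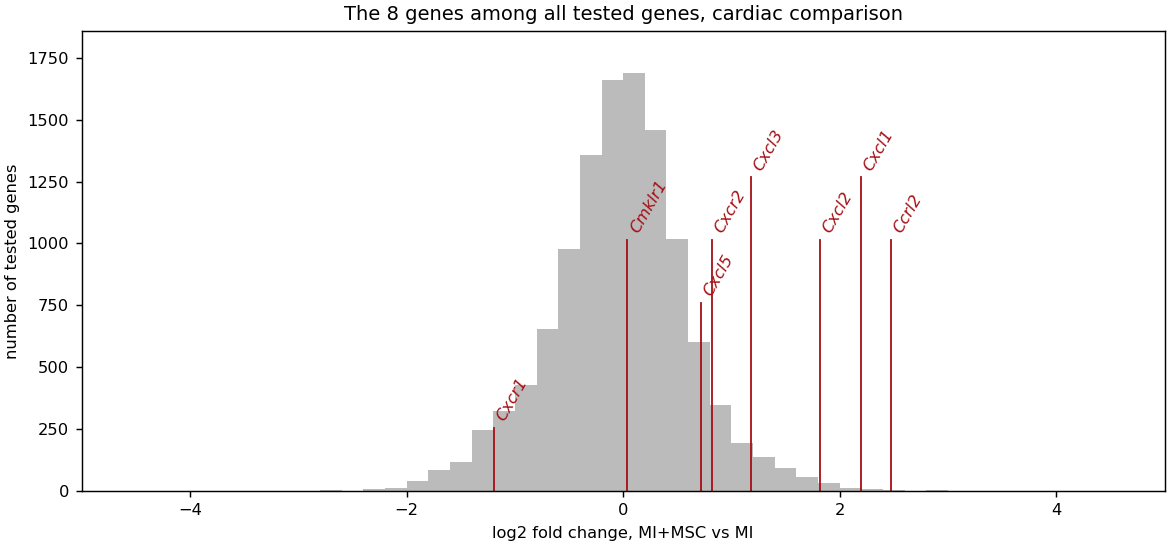
Histogram of the limma log2 fold changes in MI+MSC vs MI (x axis) over the 11549 tested genes (y axis, number of genes), with red lines at the 8 genes. Ccrl2 (2.47), Cxcl1 (2.20) and Cxcl2 (1.82) lie in the upper tail, Cmklr1 (0.04) at the centre and Cxcr1 (-1.19) on the lower side.

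Other genes of the pathway were described from lists. Of 4 tested other CXC ligands, 0 passed in MI+MSC vs MI and the median log2 fold change was 1.22. Pf4, a platelet chemokine also made by macrophages, was at 968 against 408 normalized counts on average (1.27, adjusted p = 0.618), and Cxcl16, a membrane-bound chemokine, at 429 against 187 (1.22, adjusted p = 0.551). Of the 8 other chemoattractant receptors, 0 passed with a median of 0.73, and the largest values were those of Cxcr4, the marrow retention receptor (1.42, adjusted p = 0.606), and Ptafr, the receptor for platelet-activating factor (1.37, adjusted p = 0.606). Of the 24 CXCR2 signalling and trafficking genes, 0 passed with a median of 0.24, Pak1 (1.87, adjusted p = 0.639) and Vasp (1.03, adjusted p = 0.618) being the largest. Of 15 tested genes for chemokine induction and mRNA turnover, 0 passed with a median of 0.32. Zfp36, whose protein binds AU-rich elements and speeds mRNA decay, was at 3550 against 1397 (1.35, adjusted p = 0.585), with no overlap, and the TNF receptor gene Tnfrsf1b at 1344 against 699 (1.05, adjusted p = 0.609).

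The MSC comparison in blood asked the same of circulating cells. Cxcl1 and Cxcl3 were listed above both Blood libraries and Cxcr2 below them, so 3 of the 8 genes did not overlap, a share near the 36.4% of all tested genes (21% higher and 15.4% lower). Cxcl1 and Cxcl3 had 0 reads in Blood 21, where 3 reads are worth 21.2 normalized counts, so their order against that library was not detectable at this depth. None of the markers passed the test here, but 6 of 12 tested neutrophil markers lay lower in Blood+MSC without overlap (median log2 fold change -1.78), with sums of 14319 to 20492 in Blood+MSC against 40040 to 49710 in Blood, and so did 7 of 7 tested platelet markers. Their part in the differences of the chemokine genes was not tested. limma called 0 of the 8 genes and 0.0% of all genes. edgeR, voom and DESeq2 over all libraries called 0 of the 8 (0.0%, 0.0% and 1.55% of all genes). In limma, 2 of the 8 had an unadjusted p under 0.05, against 7.34% of all. With Blood 22 left out, Blood 21 was the only Blood library, which assumes that it varies like the other groups. The log2 fold change was then 2.50 for Cxcl1 and 3.12 for Cxcl3. Without Blood 21 and MI 13, with Blood 22 as the only Blood library, the values were 1.78 for Cxcl1 and 1.73 for Cxcl3. Of the pathway lists, 0 genes passed. Ppbp was at 99.5 against 7673 normalized counts (-4.35, adjusted p = 0.672) and Pf4 at 427 against 1795 (-1.60, adjusted p = 0.672), and Blood 21 alone held 15063 of Ppbp, beside its platelet markers given above. The median log2 fold change was -1.07 in other CXC ligands, -0.52 in chemoattractant receptors, where Fpr1 (-1.51, adjusted p = 0.684) and Fpr2 (-0.88, adjusted p = 0.752) were the largest, 0.14 in CXCR2 signalling genes (Rgs18 -2.60, Plcb3 1.48, both with adjusted p = 0.672) and 0.03 in induction and turnover genes (Myd88 -0.67, adjusted p = 0.679, and Khsrp 0.53, adjusted p = 0.765).

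Whether MSC acted differently on the 2 tissues was tested as an interaction. limma called 0 of the 8 genes and 0.0% of all genes, and 0 of the 8 had an unadjusted p under 0.05 (7.26% of all genes did). edgeR, voom and DESeq2 called 0 of the 8 (0.0%, 0.0% and 0.156% of all genes). The difference between the cardiac and the blood log2 fold change was 1.64 for Ccrl2 (95% interval -0.55 to 3.83), 1.56 for Cxcr2 (-0.83 to 3.94), 1.08 for Cxcl2 (-1.21 to 3.37), 0.06 for Cxcl1 (-1.59 to 1.71) and -1.24 for Cxcl3 (-2.85 to 0.37). These intervals hold both no difference and differences of several-fold. Without MI 13 and Blood 21 the differences were 0.64 for Ccrl2 and 0.92 for Cxcr2, and those of Cxcl1, Cxcl2, Cxcl5 and Cxcr1 changed sign. Of the pathway lists 0 genes passed, the largest values being those of Ppbp (5.57), Pf4 (2.87), Cxcr4 (2.08), Ptafr (1.91), Rgs18 (2.80), Pak1 (2.04), Zfp36 (1.49) and Il1r1 (-1.11), with adjusted p of 0.630 to 0.653. Ppbp and Pf4 were highest in Blood 21, the library rich in platelet markers, whose part in these values was not tested.

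The tissue comparison without MSC asked how cells from digested infarcted hearts and cells from blood differed. Cxcl1, Cxcl3 and Ccrl2 were higher in MI and Cxcr1 and Cxcr2 lower, which is 5 of the 8 genes against 34.7% of all tested genes, with 3 higher against 21.2% and 2 lower against 13.5%. With Cxcl2, 6 of the 8 did not overlap, against 55.2% (4 higher against 31.6% and 2 lower against 23.6%). voom called 3 of the 8 (27.8% of all genes) and did not call Cxcl1 (adjusted p = 0.0606) and Cxcl3 (0.0964). The call of Cxcr1 was lost without MI 13 (adjusted p = 0.0588), MI 20 (0.0627) or Blood 22 (0.205), with library size scaling (0.0615) and with limma on the 2 groups alone (0.0673), and that of Ccrl2 without Blood 22 (0.111) and with TMM scaling (0.0592). Without both MI 13 and Blood 21, which left Blood 22 as the only Blood library, the log2 fold change of Cxcl2 was 2.68. Without Blood 22 instead, it was 0.89. Of the 4 tested other CXC ligands, Cxcl10 (3.04, adjusted p = 0.00233) and Cxcl16 (2.60, adjusted p = 0.00258) were higher in MI, and Ppbp (-4.32, adjusted p = 0.0180) and Pf4 (-1.73, adjusted p = 0.0470) were lower. In Blood, Ppbp was at 283 and 15063 normalized counts and Pf4 at 552 and 3038, the higher values in Blood 21, the library rich in platelet markers. Of the 8 other chemoattractant receptors, 5 were lower (13.5% of all genes) and 0 higher, with a median of -1.21, among them the formyl peptide receptors Fpr1 (-3.16, adjusted p = 0.00772) and Fpr2 (-2.45, adjusted p = 0.00709), Ccr1 (-1.84, adjusted p = 0.0433) and C5ar2 (-1.45, adjusted p = 0.0304).

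Downstream of CXCR2, limma called 16 of the 24 signalling and trafficking genes lower in MI and 1 higher, where 13.5% of all tested genes were called lower and 21.2% higher, with a median log2 fold change of -1.55 against 0.15 over all genes. The lower genes included Rgs18, a brake on G protein signalling (-3.94, adjusted p = 0.00159), the leukocyte GTPase gene Rac2 (-2.91, adjusted p = 0.00131) and the Src-family kinase gene Fgr (-1.98, adjusted p = 0.00652), and the higher gene was the receptor kinase gene Grk3 (2.08, adjusted p = 0.00475). Of 15 induction and turnover genes, 5 were lower and 1 higher, against the same shares. Il1rap (-2.38, adjusted p = 0.00585), Irak4 (-2.06, adjusted p = 0.00306) and Il17ra (-1.84, adjusted p = 0.0101) were lower in MI, and Il1r1 (2.0, adjusted p = 0.00845) was higher. Of the 12 tested neutrophil markers, 10 were lower in MI and 0 higher (13.5% and 21.2% of all genes), while all 8 cardiomyocyte and 6 of 8 endothelial markers were higher. Of 7 tested platelet markers, 5 were lower in MI and 0 higher, and their sum was 10951 in Blood 21 and 351 in Blood 22. The part of all these markers in the differences of Rgs18 and the other listed genes was not tested.

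After MSC, Cxcl1, Cxcl2, Cxcl3 and Ccrl2 were higher in the heart than in blood and Cxcr1 was lower, which is 5 of the 8 genes against 14.1% of all tested genes, with 4 higher against 8.23% and 1 lower against 5.85%. Cxcl5 and Cxcr2 did not overlap either, so that 5 genes were higher without overlap, against 33.8%, and 2 lower, against 29.7% (63.5% together). This comparison shares no library with that of MI and Blood, but it shares its libraries with both MSC comparisons, as does that of MI and Blood. The count of 5 fell to 3 without MI+MSC 15 or Blood+MSC 23 and to 2 without Blood+MSC 24. The call of Cxcl2 was lost without any of MI+MSC 15, MI+MSC 17, Blood+MSC 23 and Blood+MSC 24 (adjusted p 0.0512 to 0.294) and with TMM scaling (0.125), that of Cxcr1 without MI+MSC 15 or 18 or Blood+MSC 23 or 24 (0.0506 to 0.174), and that of Cxcl3 without Blood+MSC 24 (0.0765). Cxcl10 (3.97, adjusted p = 0.00135) and Cxcl16 (3.62, adjusted p = 0.00103) were higher as well. Ltb4r1 was the only one of 8 chemoattractant receptors to pass (-1.19, adjusted p = 0.0427). Of the 24 CXCR2 signalling genes, 9 were lower and 0 higher, against 5.85% and 8.23% of all genes (median -1.11), led by Dock2 (-2.67, adjusted p = 0.00667), Pik3r6 (-2.17, adjusted p = 0.00285), Grk6 (-2.13, adjusted p = 0.00269) and Rac2 (-1.87, adjusted p = 0.0238). Of the induction and turnover genes, Il1rap (-2.15, adjusted p = 0.0192) and Irak4 (-1.64, adjusted p = 0.0188) were lower. Of the 12 tested neutrophil markers, 3 were called lower and 0 higher, with a median of -2.23, and 10 lay lower without overlap. All 8 cardiomyocyte and 6 of 8 endothelial markers were called higher, and all 5 erythroid markers lower. The part of these markers in the differences of the listed genes was not tested.

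**Figure D4:**
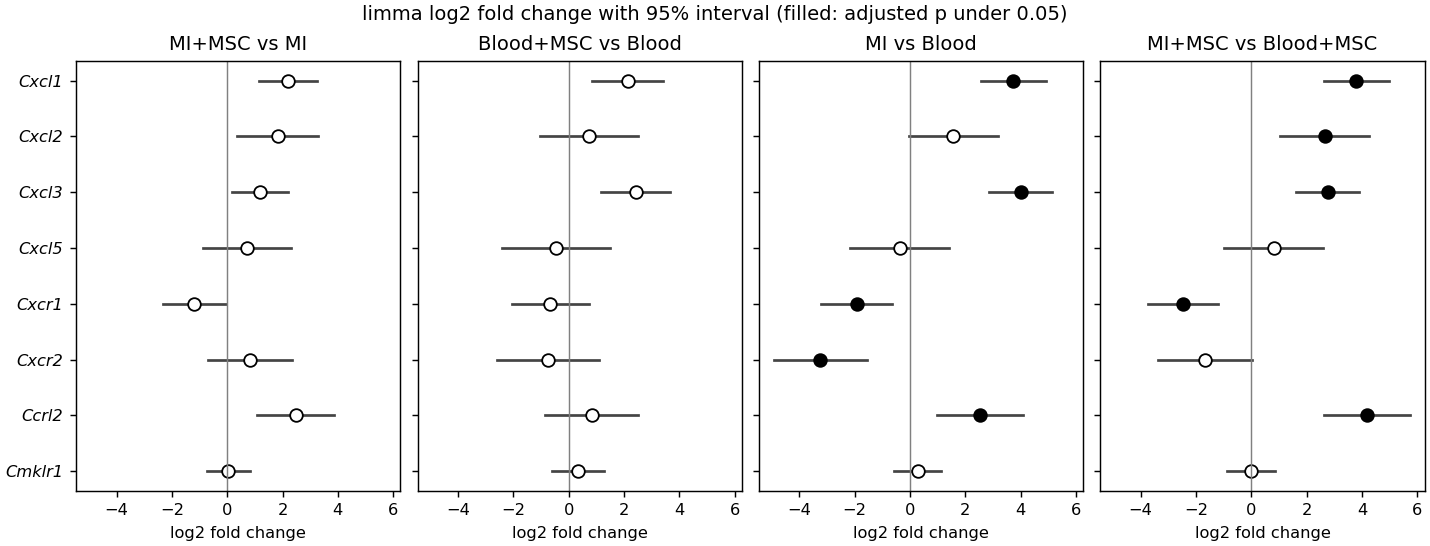
limma log2 fold change of each gene with its 95% interval (x axis) in the 4 comparisons of 2 groups. Filled points passed the adjusted p and fold thresholds, and they appear only in the 2 tissue comparisons, with 5 genes in each.

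Ratios between genes of the same library do not depend on its scaling, and they were chosen after the values were seen. Ccrl2 was at 1.04, 0.687 and 0.890 of the level of Cxcr2 in MI and at 2.49, 1.99 and 4.02 in MI+MSC, whereas in Blood and Blood+MSC it was at 0.0107 to 0.0846. The MI+MSC ratios were 3.15 times those of MI on the geometric mean (two-sided exact permutation p = 0.1, the smallest that 3 against 3 allows). Cxcl2 was at 1.63 to 3.32 times the level of Cxcr2 in MI and at 3.74 to 7.18 times in MI+MSC, without overlap (exact permutation p = 0.1). Relative to the sum of the 14 neutrophil markers, Ccrl2 was at 92.5, 83.1 and 122 per 1000 for MI, 433, 343 and 480 for MI+MSC, 2.65 and 1.05 for Blood and 13.8 and 4.36 for Blood+MSC. All cardiac libraries again lay above all blood libraries and MI+MSC above MI. The markers in this sum did not move alike, and ratios to it depend on which are summed. Of the 12 tested, 6 lay lower in Blood+MSC than in Blood without overlap. S100a9 was among them, at 10655 to 16229 in Blood and 2730 to 4124 in Blood+MSC. The others overlapped, such as Csf3r, at 5695 to 9547 and 5757 to 7249. Relative to the sum of the 11 macrophage and monocyte markers, Ccrl2 was at 71.0 to 76.7 per 1000 in MI and 101 to 679 in MI+MSC, while Cxcl2 overlapped, at 174 to 237 and 181 to 1276.

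Cxcr2 behaved otherwise against the same marker sum. It was at 89.0, 121 and 137 per 1000 of the neutrophil marker sum for MI, 174, 173 and 119 for MI+MSC, 121 and 97.8 for Blood and 164 and 176 for Blood+MSC. The 10 libraries spanned 89.0 to 176 per 1000. MI and Blood overlapped, although the normalized counts of Cxcr2 were lower in every MI library than in Blood. Both Blood+MSC libraries lay above both Blood libraries per 1000, by 1.56 times on the geometric mean (exact permutation p = 0.333). This is the opposite order to their normalized counts.

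**Figure D5:**
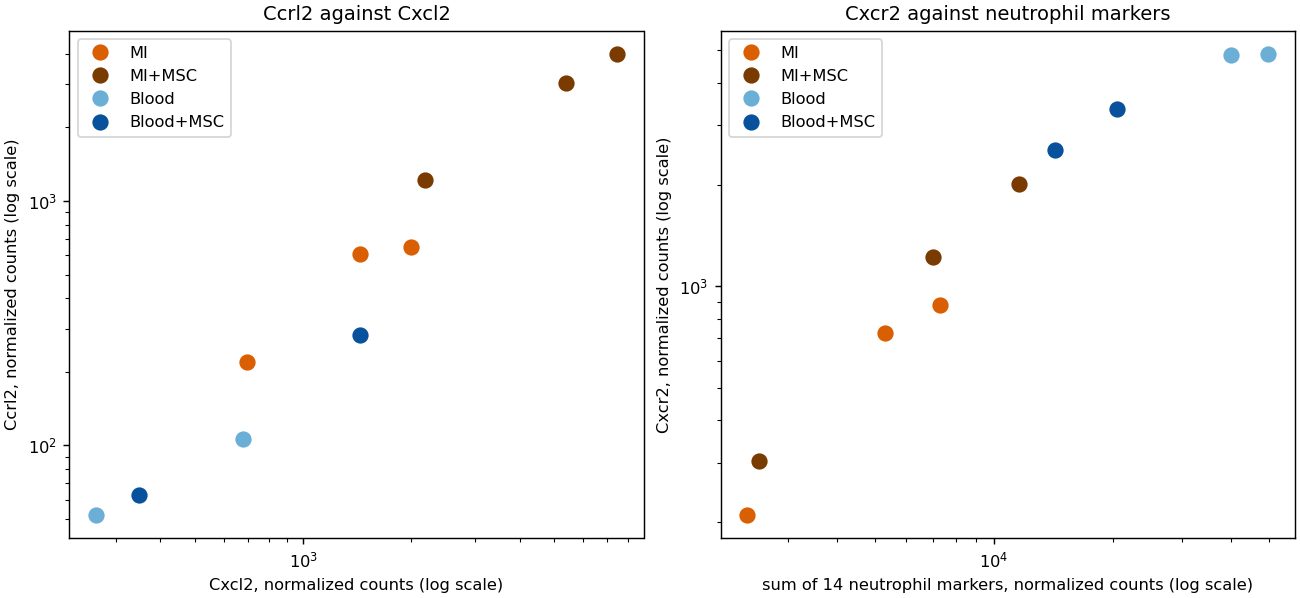
Ccrl2 against Cxcl2 (left) and Cxcr2 against the sum of 14 neutrophil markers (right), in normalized counts on logarithmic axes, with 1 point per library coloured by group. Ccrl2 and Cxcl2 rank the 10 libraries in the same order, and Cxcr2 stays between 89.0 and 176 per 1000 of the marker sum.

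Across the 10 libraries, which differ in tissue, treatment and depth, the genes differed in how they moved with Ccrl2. Ccrl2 and Cxcl2 ranked the libraries identically (Pearson r = 0.98 on the log2 scale, n = 10), and r between them was 0.99 over the 6 cardiac libraries. Cxcl1 had r of 0.93 with Ccrl2 and 0.96 with Cxcl3. Cxcl5 had r of 0.31 with Ccrl2 over all libraries and 0.62 over the cardiac ones, and Cmklr1 0.06 and -0.10. Cxcr1 moved against Ccrl2, with r of -0.80 over all libraries and -0.45 over the cardiac ones. Cxcr2 had r of -0.40 with Ccrl2 over all libraries but 0.78 over the cardiac ones. These values describe libraries that share their groups and are no test.

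Likeness was measured over 5601 genes whose mean was 50 normalized counts or more, and those with the pattern closest to Ccrl2 over 10 libraries were Tnfaip3 (r = 0.98), Cxcl2 (0.98), Rab20 (0.98), Gpr132 (0.97) and Vegfa (0.97). Tnfaip3 ranged from 319 to 1257 normalized counts for MI, 1177 to 4117 for MI+MSC, 55.9 to 91.9 for Blood and 79.6 to 227 for Blood+MSC. The genes closest to Cxcl2 were Ccrl2, G0s2 (0.97), Nr4a1 (0.97), Dusp5 (0.97) and Bcl2a1a (0.97). The last belongs to a family of near-identical copies whose reads are hard to assign. Closest to Cxcr2 were Il36g (r = 0.997), Mir223hg (0.99), 1600010M07Rik (0.99), Mxd1 (0.99) and Cebpd (0.99). Il36g ranged from 58.8 to 217 for MI, 84.1 to 432 for MI+MSC, 860.2 to 1152 for Blood and 567 to 692 for Blood+MSC.

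Neighbouring genes did not share these patterns throughout. Mthfd2l, beside Cxcl2, averaged 21.5 normalized counts for MI, 11 for MI+MSC, 23.8 for Blood and 6.25 for Blood+MSC. Cxcl15, between Cxcl3 and Cxcl1, reached at most 8.40 in any library. Ltf, beside Ccrl2, averaged 29 for MI, 20.8 for MI+MSC, 664 for Blood and 151 for Blood+MSC, the opposite tissue order to Ccrl2, and Lrrfip2 on its other side was at 115 to 152 in all groups. Arpc2, beside Cxcr1, averaged 470.4 for MI, 620.0 for MI+MSC, 1420.5 for Blood and 1010.2 for Blood+MSC, and Rufy4, beside Cxcr2, was at 25.8, 28.9, 90.4 and 92.4.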

How the data were processed

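RNA-seq of 10 libraries of Ly6G+ cells was used, each assigned to its group from its label. According to the methods and the labels, the authors trimmed the ribosomal RNA-depleted stranded reads with Trimmomatic, removed duplicates with Picard, mapped them to GRCm39 with STAR, assigned them to genes by strand with featureCounts, excluded mitochondrial reads and applied DESeq2 size factors. Each deposited value is a signal, a read count over the size factor of its library, and 281850 of 281850 were equal between the table named raw and the normalized one. Low values gave the size of a single read, and 100% of values were whole multiples of it within 0.01 read. The annotation used here (GENCODE, GRCm39) held 27906 of 28185 identifiers and may differ from the release the authors used.

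Because the values are normalized, the main test was limma (3.58.1, R 4.3.3) with its trend option, on the log2 of the normalized count plus 2, with 1 mean per group over all 10 libraries, for 11549 genes with a mean of at least 10. Fold changes are on this scale, which compresses those of low genes. A call needed a Benjamini-Hochberg adjusted p under 0.05 over all tested genes plus a change of 0.5 log2 units in either direction, the interaction only the first. edgeR (4.0.16) and DESeq2 (1.42.0) on recovered reads were alternatives. All were run on simulated reads with known changes in the MSC comparisons only, so the tissue comparisons and the interaction were not checked this way. Ratios were compared with exact permutation tests (scipy 1.17.1). Intervals and the floor of 3 reads (25.2 normalized counts in MI 13, 0.505 in Blood+MSC 24) cover counting error only.

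The 8 genes and the lists were chosen with earlier results of these data known. Genes named from the lists are up to 4 that passed, with the largest change first, or 2 where none passed, in each comparison. In addition, the 5 genes most like Ccrl2, Cxcl2 and Cxcr2 and the neighbouring genes are named. Protein sequences were not used here.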

Additional observations from a re-analysis of the deposited data

Results flagged for a closer look

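Among the chemokine genes and the pathway lists, Pf4, the platelet factor 4 gene between Cxcl5 and Cxcl3, moved in opposite directions with MSC in the 2 tissues. Ppbp did so too, with the larger difference given above. Pf4 was at 252 to 516 normalized counts in MI and 682 to 1233 in MI+MSC, but at 552 to 3038 in Blood and 396 to 457 in Blood+MSC. The libraries with and without MSC did not overlap in either tissue, as in 16.7% of all tested genes in the heart and 36.4% in blood. The difference between the cardiac and the blood log2 fold change of Pf4 was 2.87, which did not pass the test of the interaction (limma adjusted p = 0.630). The 3038 was in Blood 21, the library rich in platelet markers, and the part of those in the difference was not tested. Groups of 2 or 3 libraries were not searched for outlying libraries.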

How the results depend on the processing

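No paired analysis was possible because the groups share no replicate number in the labels. Over 40 results for single genes, 669 of 740 values under alternatives kept their direction and side of the threshold, 11 passed only in the alternative, 19 lost the call and 41 changed sign, all of them in results that did not pass. The number of the 8 genes called in MI+MSC vs MI moved from 0 to 2 with DESeq2 over all libraries, 3 with DESeq2 on the 2 groups and 1 with voom and quality weights, and in MI vs Blood from 5 to 3 with voom. With 1 library left out, the count was 0 to 2 in Blood+MSC vs Blood, 3 to 5 in MI vs Blood and 2 to 4 in MI+MSC vs Blood+MSC.

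Changes of sign were as follows. In MI+MSC vs MI, Cmklr1 was at -0.090 on the log2 scale with library size scaling, -0.092 with voom, -0.13 without the shallow libraries MI 13 and Blood 21, and -0.24 to 0.40 with 1 library left out. In Blood+MSC vs Blood, Cxcl5 was at 0.17 with TMM, 0.93 with voom and 0.99 without the shallow libraries. Leaving out 1 library gave -1.90 to 0.99 for Cxcl5, -0.28 to 1.76 for Cxcl2, -0.24 to 1.90 for Ccrl2 and -1.58 to 0.26 for Cxcr1. In MI vs Blood, Cxcl5 was at 0.064 with library size scaling, 0.43 with edgeR, 1.42 with voom, 1.41 without the shallow libraries and -1.83 to 1.07 with 1 library left out. In MI+MSC vs Blood+MSC, Cmklr1 was at 0.071 with library size scaling, 0.092 with DESeq2 over all libraries, 0.016 with DESeq2 on the 2 groups and -0.33 to 0.35 with 1 library left out. In the interaction, Cxcl1 was at -0.53 with a pseudocount of 1, -0.069 with library size scaling, -0.14 with TMM, -1.01 with edgeR, -0.83 with DESeq2, -0.010 without the shallow libraries and -0.37 to 0.42 with 1 library left out. Without the shallow libraries it was -0.025 for Cxcl2, -0.61 for Cxcl5 and 0.27 for Cxcr1, and voom gave -0.65 for Cxcl5. Leaving out 1 library gave -0.27 to 2.63 for Cxcl5, -1.46 to 0.39 for Cxcr1 and -0.61 to 0.068 for Cmklr1. The causes were not tested. In the fits on the 2 blood groups, Cxcl1 and Cxcl3 fell under the mean of 10 and could not be fitted.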
